A study of Mus musculus with 6 samples.

Results

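Mouse liver tumours that held a component labelled CLC were set against tumours of the same labelled origin without it. The comparison took 4 of the 6 arrays of the series, chosen by sample title: 2 Epcam-derived hepatocellular carcinomas (HCC) with CLC and 2 without. All 4 tumours arose in tamoxifen-treated Epcam-AID mice of the C57BL/6 strain that received DDC at 0.1% in the diet for 8 months, so transgene, tamoxifen, strain and diet are common to both groups. The remaining 2 arrays held Albumin-derived HCC without CLC from Alb-AID mice aged 90 weeks and entered only the filter on dim probes and the shared estimate of spread. The labels describe the transgenic lines by name and give neither the construct nor the sex of the animals. They also do not say how much of a tumour was CLC, nor whether the piece taken for RNA included that component, so a value describes a frozen tumour sample as a whole.

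Tumours of Epcam-AID mice are described in the series as derived from ductular progenitor cells, which line the small branches of the biliary tree near the portal tract and carry the surface protein Epcam. DDC is a compound that disturbs heme synthesis, injures bile ducts and expands these ductules. In liver pathology CLC commonly abbreviates cholangiolocellular carcinoma, a tumour of small duct-like structures, which the labels here do not spell out. Hepatocytes differ along the path of the blood: those near the portal vein make urea and glucose, and those near the central vein, exposed to Wnt ligands from the endothelium, make glutamine and hold most drug-metabolising enzymes.

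Levels are given as the log2 of spot intensity relative to the 75th percentile of the same array, and differences as the mean with CLC minus the mean without CLC on that log2 scale, with the standard error (SE) of the limma fit and n = 2 tumours per group. In each run of 4 levels the order is the tumour without CLC replicate 1, the tumour without CLC replicate 2, the tumour with CLC replicate 1 and the tumour with CLC replicate 2. Levels of different genes come from different probes and are not compared with one another.

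The slide was read from each file header. The tumour with CLC replicate 1 lay on slide 1 with both Albumin-derived arrays, and the tumour with CLC replicate 2 lay on slide 2 with both tumours without CLC, so the difference of replicate 2 from the mean of those tumours is the value within 1 slide. The array of replicate 1 with CLC was also the dimmest of the 4, with 52.0% of probes well above background against 63.1% to 64.6% on the other arrays. The replicate number carried a further difference. Xist, the RNA that silences the inactive X chromosome, was at -0.95, -7.42, -0.08 and -7.77, and the Y-linked helicase gene Ddx3y at -7.48, -2.04, -6.11 and -2.04, so each group held 1 tumour of either pattern. The hepatocyte markers Alb (9.81, 9.52, 9.87 and 9.40), Ttr (8.15, 7.94, 8.62 and 7.90) and Hnf4a (5.87, 6.17, 5.69 and 6.07) were high on all 4 arrays.

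Of 27412 features tested over all 6 arrays, 0 passed limma's threshold of 0.05 after Benjamini-Hochberg adjustment (0% called). At an unadjusted p under that value 358 features were higher with CLC (1.31%) and 596 lower (2.17%), and the smallest limma adjusted p was 0.651. No difference described here therefore passed the test across all features, and "higher" and "lower" refer to the measured values. Of the 27050 features above background in these tumours, 2762 (10.2%) had both tumours with CLC above both without, and 5401 (20%) had both below. Over all 27412 features tested the shares were 10.3% and 19.8%. With normexp background correction those counts were 3114 and 3377, so that the higher features made up 48.0% of the 2 counts together against 33.8% here, and 44.6% with no filter on dim probes. The gap between the 2 tumours of a group exceeded 2-fold for 14.9% of features with CLC and 15% without. For the difference between the group means the share was 6.57%. Means of 2 arrays vary less than single arrays, so these shares are not a like comparison. The labels do not say whether tumours came from separate mice, so p-values measure only the spread between these samples.

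Among symbols well above background on all 4 arrays, the larger differences without overlap were more often higher than lower with CLC. Among 13957 gene symbols well above background on all 4 arrays, 12.5% were higher and 14.4% lower without overlap, and 274 were higher and 154 lower with CLC by more than 2-fold as well. Beyond 4-fold there were 51 higher and 21 lower, and beyond 8-fold 11 higher and 3 lower. That filter left out 149 symbols not well above background on either array with CLC and 24 on either array without. A further 1558 were dim on some arrays. The counts by size therefore left out more symbols that were dim with CLC than dim without, and how this bears on the direction was not tested. The genes are described below by lists, 48 in all, each with the number of members that were higher and the number whose groups did not overlap. For reading those counts, 11.9% of the 15688 symbols above background were higher without overlap and 16.1% lower, with a median difference of -0.01 and 48.3% of symbols higher.

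**Figure D1:**
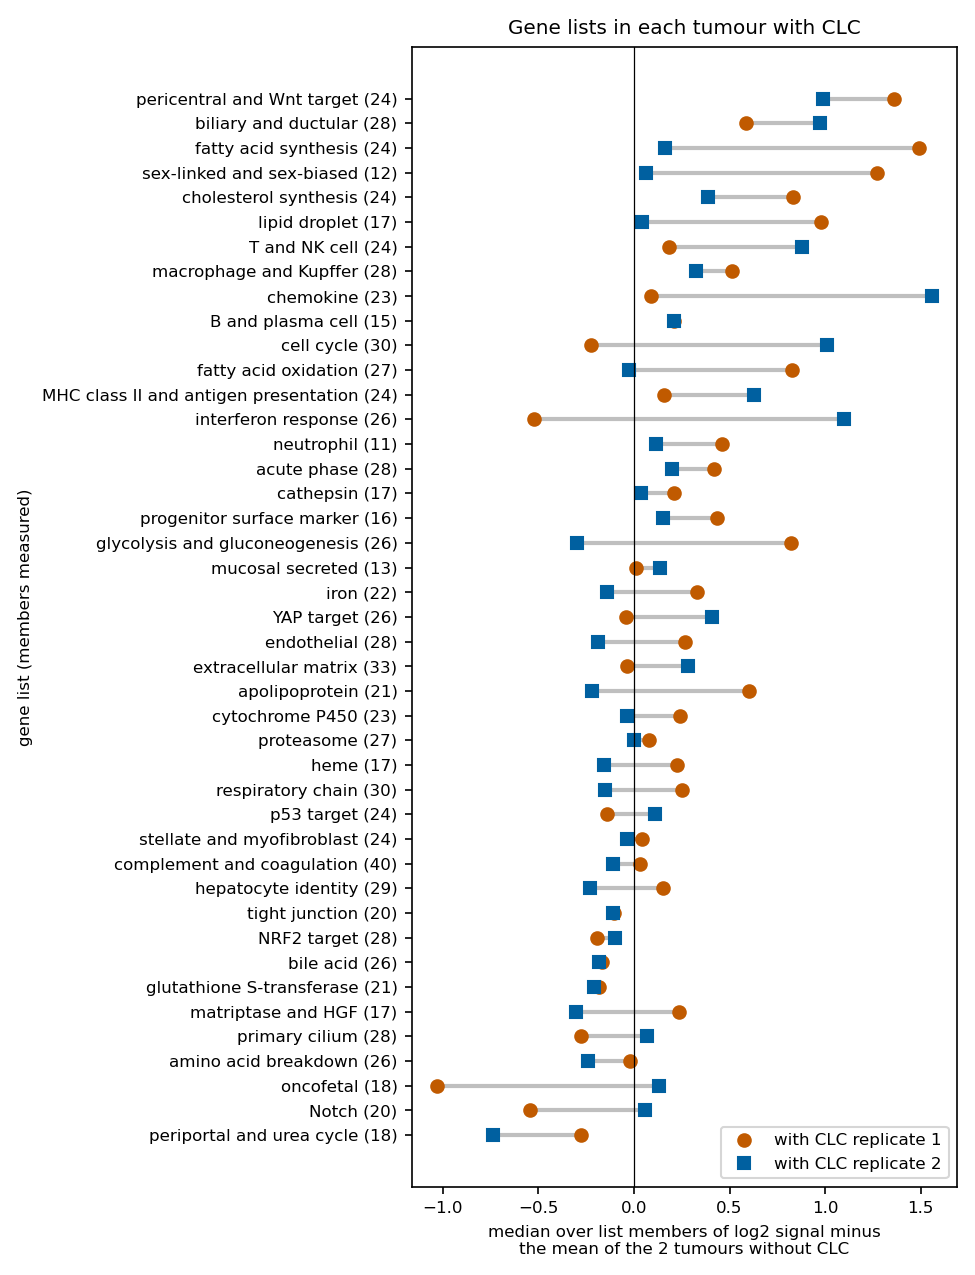
Median, over the measured members of most gene lists with at least 10 of them, of log2 signal in each tumour with CLC minus the mean of the 2 tumours without CLC (x axis, log2). Circles are replicate 1 (slide 1), squares replicate 2 (slide 2), and the grey bar joins them. The pericentral list was at 1.36 and 0.99 and the periportal list at -0.28 and -0.74, while the interferon list was at -0.52 and 1.1.

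Genes of pericentral hepatocytes and Wnt targets were mostly higher with CLC. Of 24 members measured, 22 were higher with CLC, 16 of them without overlap, and Notum was the 1 lower without overlap, with a median difference of 1.16. The median was 1.36 for replicate 1 and 0.99 for replicate 2, the value within slide 2. Comparing tumours of the same replicate number, it was 0.76 for replicate 1 and 1.5 for replicate 2. Sp5, Lgr5 and Slc22a3 passed the background filter only through the tumours with CLC, and Slc22a3 was well above background in 1 tumour without CLC. Over the members well above background on all 4 arrays the median was 1.12.

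For this list the promoters are shown because Wnt signalling ends at TCF and LEF proteins, which bind DNA with letters such as CTTTGAA and CTTTGAT. These letters were searched on both strands of the 250 bases before the start of transcription. They occurred in 6 of the 15 members with a RefSeq promoter entry (40.0%). Of all 27025 genes with an entry, 2333 had a match in any of their promoters (8.6%). The motif was chosen after values were seen, and a match in so few genes is a description of the sequence, not a binding site. The matches were in Cyp1a2, Cyp2e1, Lect2, Slc1a2, Sp5 and Tnfrsf19. Sequences are from RefSeq on GRCm38.p6, 5′ to 3′ on the strand of the gene, with the motif in capitals. Those of Cyp2e1 (chr7:140763569-140763818, plus strand, motif 135 bases before the start), Lect2 (chr13:56548539-56548788, minus strand, motif 32 bases before the start and on the opposite strand) and Sp5 (chr2:70474673-70474922, plus strand, motif 104 bases before the start) follow.
Cyp2e1: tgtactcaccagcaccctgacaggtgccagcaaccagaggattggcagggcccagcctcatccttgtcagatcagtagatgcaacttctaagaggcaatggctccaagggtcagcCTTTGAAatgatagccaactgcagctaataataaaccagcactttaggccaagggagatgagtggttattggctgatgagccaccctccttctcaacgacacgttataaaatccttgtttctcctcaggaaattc
Lect2: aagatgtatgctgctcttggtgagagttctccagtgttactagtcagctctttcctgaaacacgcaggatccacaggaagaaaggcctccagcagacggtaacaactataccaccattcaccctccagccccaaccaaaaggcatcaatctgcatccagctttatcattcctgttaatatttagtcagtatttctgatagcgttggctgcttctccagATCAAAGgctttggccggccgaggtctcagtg
Sp5: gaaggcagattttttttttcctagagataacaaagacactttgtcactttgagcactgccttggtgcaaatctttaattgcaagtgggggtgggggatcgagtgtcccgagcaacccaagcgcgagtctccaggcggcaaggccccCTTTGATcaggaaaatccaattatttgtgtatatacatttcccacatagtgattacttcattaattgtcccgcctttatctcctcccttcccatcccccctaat

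Enzymes and transporters of the pericentral zone were among the clearest differences. Cyp2e1, the cytochrome P450 that oxidises ethanol, was at 4.38, 4.42, 6.54 and 6.34, a difference of 2.04 ± 0.35 (SE, n = 2). The tumours of each group lay close together and the groups were far apart. Rgn, regucalcin, which takes part in ascorbate synthesis and calcium handling, was at 1.12, 2.36, 4.16 and 4.41 (2.54 ± 0.45, SE). Rhbg, an ammonium transporter, was at -2.77, -0.91, 0.24 and 0.76 (2.34 ± 0.75, SE). Both tumours with CLC exceeded both without for each of these genes. Oat, ornithine aminotransferase, differed by 1.19 ± 0.36 (SE) and Gulo, the last enzyme of ascorbate synthesis, by 1.12 ± 0.55 (SE), both without overlap. Glul, glutamine synthetase, the textbook marker of the innermost pericentral hepatocytes, was at 4.06, 2.84, 4.57 and 4.03, so the groups overlapped (0.85 ± 0.46, SE). Cyp1a2, a cytochrome P450 of the same zone, was at 1.15, 1.86, 0.62 and 1.60, with overlap and a mean lower with CLC (-0.40 ± 0.61, SE) but 0.09 higher within slide 2.

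Signalling members went mostly the same way, with exceptions. Lgr5, the receptor for R-spondins, was at -5.96, -5.93, -3.64 and -2.83, not well above background in either tumour without CLC. It was at least 4.73-fold higher with CLC, a bound set against the lowest signal that counted as well above background on each array without CLC. Sp5, a transcription factor induced by Wnt, was at -7.33, -5.79, -3.33 and -3.97 and at least 3.55-fold higher by the same bound. With normexp background correction the differences of Lgr5 and Sp5 were 0.78 and 0.61 on the log2 scale, below those bounds. Tbx3, a transcription factor downstream of beta-catenin, was at -0.78, -0.69, 1.33 and 0.17 (1.48 ± 0.42, SE), and cyclin D1 (Ccnd1) at 2.29, 1.23, 3.12 and 3.47 (1.54 ± 0.46, SE). Lect2, a secreted protein and beta-catenin target, was at 0.86, 1.44, 3.62 and 3.21 (2.26 ± 0.75, SE). Feedback inhibitors of the pathway differed little: Znrf3 by 0.50 ± 0.27 (SE), Rnf43 by 0.17 ± 0.49 (SE), and Notum by -0.42 ± 0.26 (SE), the latter with a second probe at 0.07. Axin2 did not pass the background filter. Among the ligands, Wnt9b, made by central vein endothelium, was at -5.32, -4.52, -3.54 and -3.62, with 1 tumour without CLC not well above background, and Rspo3 at -2.02, -2.88, -1.59 and -1.85, both higher with CLC without overlap.

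**Figure D2:**
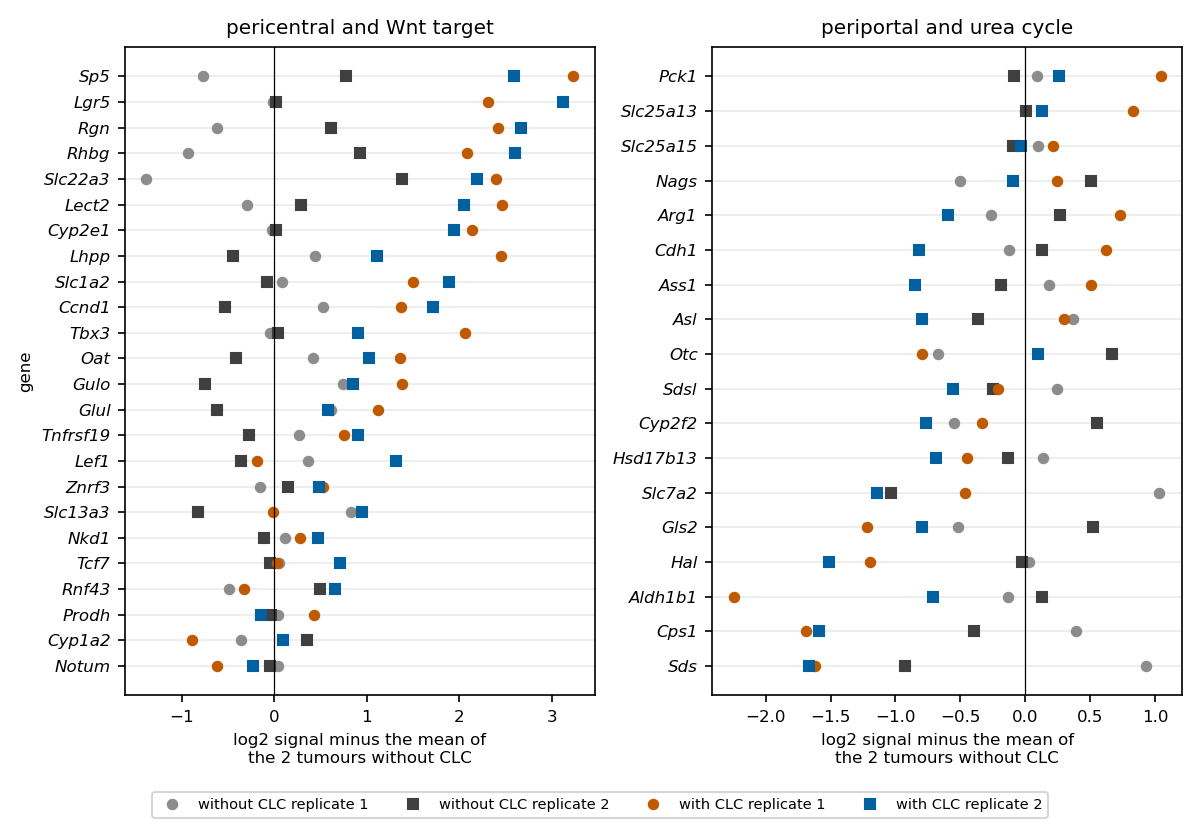
Log2 signal minus the mean of the 2 tumours without CLC (x axis) for each measured pericentral and Wnt target gene (left) and each periportal and urea cycle gene (right), 1 point per tumour. Circles are replicate 1 and squares replicate 2, grey without CLC and coloured with CLC. Coloured points lie right of the grey ones for Cyp2e1 (2.04) and left of them for Cps1 (-1.64).

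Genes of the periportal zone and the urea cycle leaned the other way. Of 18 measured, 5 were higher and 13 lower with CLC, 2 and 6 of them without overlap, with a median of -0.37 (-0.28 for replicate 1 and -0.74 for replicate 2). Between tumours of the same replicate number the lean was small for number 1, with 8 of 18 higher with CLC (median -0.09). For number 2 it was 3 of 18 (median -0.63). Cps1, carbamoyl phosphate synthetase, which starts the urea cycle, was at 3.09, 2.31, 1.01 and 1.11 (-1.64 ± 0.33, SE). Hal, the histidine-degrading enzyme, was at 2.25, 2.20, 1.03 and 0.71 (-1.35 ± 0.31, SE). Gls2, the liver glutaminase, was at 3.17, 4.21, 2.46 and 2.89 (-1.01 ± 0.46, SE). The later urea cycle enzymes did not share that difference: Ass1 was at 5.94, 5.57, 6.26 and 4.91, and Arg1 at 4.73, 5.26, 5.72 and 4.40, with groups that overlapped. Pck1, of gluconeogenesis, was higher without overlap, by 0.65 ± 0.95 (SE), as was Slc25a13, an aspartate carrier of mitochondria, by 0.48. The SE is pooled over all 6 arrays, and for Pck1 the Albumin-derived tumours lay far apart, at 3.84 and 0.87.

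Enzymes of amino acid breakdown, 26 measured, had 10 members higher and 16 lower, with 1 higher (Cbs, by 0.43) and 6 lower without overlap. The median was -0.18 (-0.02 for replicate 1 and -0.24 for replicate 2). Tumours of the same replicate number differed in opposite directions, with 17 of 26 higher with CLC for number 1 (median 0.27) and 2 for number 2 (-0.64). Gnmt, which consumes S-adenosylmethionine, was at 5.92, 6.06, 4.84 and 4.49 (-1.32 ± 0.31, SE). Agxt, of glyoxylate removal, was at 4.07, 3.81, 2.89 and 1.90 (-1.55 ± 0.56, SE), and Hpd, of tyrosine breakdown, at 3.49, 4.61, 2.93 and 3.12 (-1.02 ± 0.43, SE). Of 29 hepatocyte identity genes 10 were higher and 19 lower, by small amounts, with a median of -0.05 and 1 higher (Foxa1) and 4 lower (Hpd, Apoh and Foxa3 among them) without overlap. Alb differed by -0.02 ± 0.29 (SE) and Hnf4a by -0.14 ± 0.29 (SE). The sign for Alb turned with median scaling and with the mean of probes, and that for Hnf4a with the mean of probes and within slide 2.

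Genes of bile duct and ductular cells were mostly higher with CLC. Of 28 measured, 21 were higher with CLC, 13 of them without overlap, and Anxa13 and Slc4a2 were the 2 lower without overlap, with a median of 0.89. It was 0.59 for replicate 1 and 0.97 for replicate 2, and 0.56 over members well above background on all 4 arrays. In bulk tissue more cells of a type and more RNA per cell cannot be told apart, here or in the lists that follow.

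The duct keratins differed together. Krt19 was at -4.21, -3.87, -1.59 and -1.37 (2.56 ± 0.50, SE), with both tumours with CLC at nearly the same level. Krt7 was at -5.22, -5.22, -2.95 and -4.24 (1.62 ± 0.53, SE), and Krt23 at -4.08, -2.52, -1.52 and -1.47 (1.81 ± 0.72, SE). With normexp the differences of Krt19, Krt7 and Krt23 were 1.41, 0.64 and 1.02. Krt8 and Krt18, which hepatocytes also make, overlapped between the groups. Epcam was at -5.61, -5.18, -3.69 and -3.86, with 1 tumour without CLC not well above background, and with normexp its difference was 0.54 in place of 1.62. Among secreted and surface proteins, Mmp7, a matrix protease of ductular cells, was at -2.03, -2.65, -0.23 and -1.01 (1.72 ± 0.62, SE). Spp1, osteopontin, was at 5.42, 4.81, 5.88 and 6.73, and Cd24a at -0.29, -1.23, 0.24 and 0.85, both without overlap. Sctr, the secretin receptor of bile duct cells, was at -4.74, -5.53, -2.81 and -4.14, with 1 tumour without CLC not well above background, and Cftr, the chloride channel it controls, at -3.03, -3.70, -2.80 and -2.81.

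Other ductular genes did not follow. Sox9, the ductular transcription factor, was at -0.45, 0.50, -1.24 and 0.22, with overlap between groups and a difference of -0.54 ± 0.57 (SE) that turned to 0.19 within slide 2. Prom1, a progenitor surface protein, was at -2.65, -7.77, -3.39 and -3.86, so the spread between the tumours without CLC exceeded the difference. Anxa13, an epithelial annexin, went the other way at 3.69, 2.13, -1.05 and 1.03 (-2.91 ± 0.81, SE). Progenitor surface markers as a list had 10 of 16 members higher with a median of 0.21. Cd44, the hyaluronan receptor, was at -0.51, -0.37, 0.84 and 0.62 (1.17 ± 0.42, SE), and Ncam1, of reactive ductules, differed by 1.40 ± 1.11 (SE), with a second probe at 0.35 and a difference of 0.75 with normexp.

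**Figure D3:**
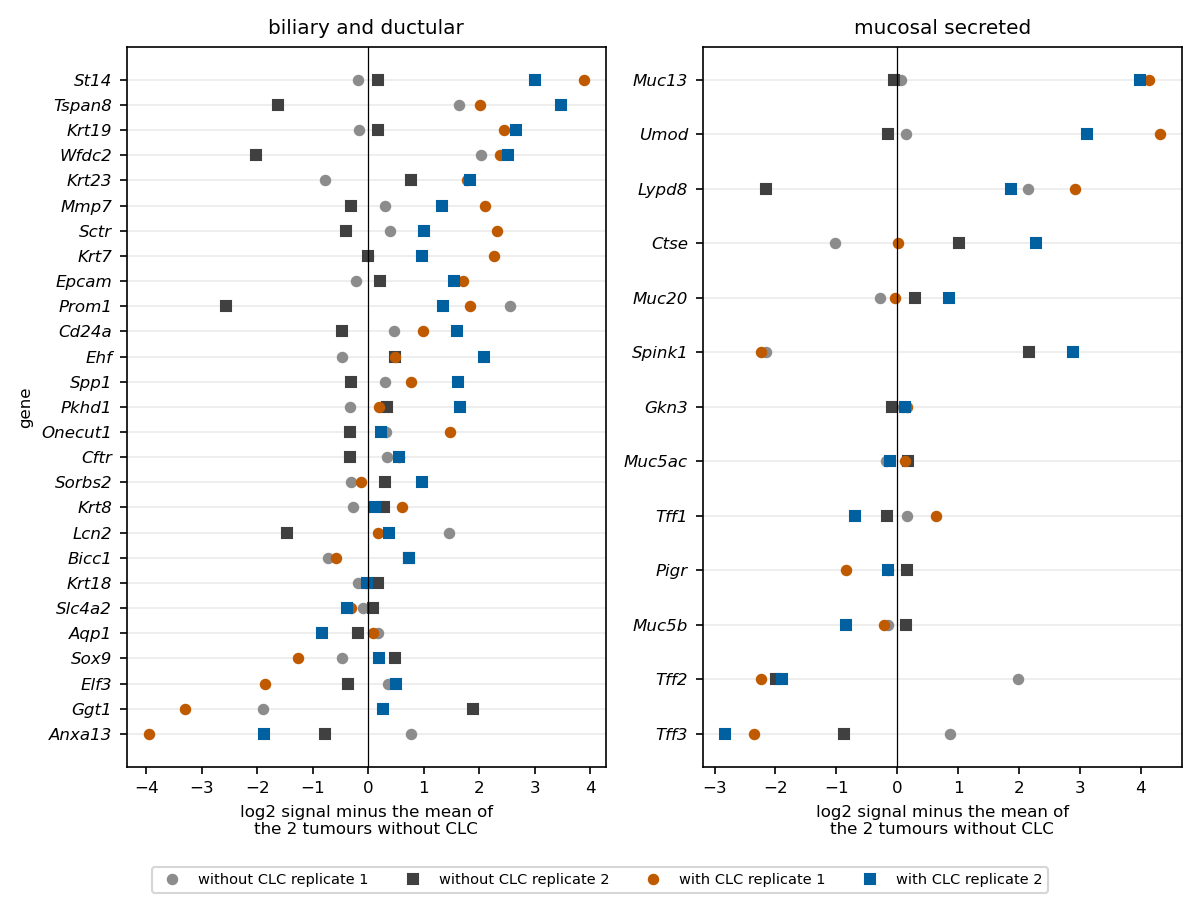
Log2 signal minus the mean of the 2 tumours without CLC (x axis) for most measured biliary and ductular genes (left) and mucosal secreted genes (right), 1 point per tumour, with marks as in the key. St14, Krt19 and Muc13 show both coloured points right of both grey ones, at differences of 3.45, 2.56 and 4.06, while Anxa13 (-2.91) and Tff3 (-2.60) show them on the left.

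Membrane proteases and their inhibitors parted. St14, which encodes matriptase, an epithelial protease that activates growth factors and other proteases, was at -3.85, -3.48, 0.23 and -0.66 (3.45 ± 0.50, SE), more than 8-fold higher in both comparisons of a tumour with CLC against the mean without. With normexp the difference of St14 was 2.21. Spint1, its inhibitor, was at -2.20, -2.12, -1.28 and -0.24 (1.40 ± 0.45, SE). Tmprss2, a related membrane protease, was lower, at 1.15, 1.28, -0.65 and -0.66 (-1.87 ± 0.34, SE), and Spint2, the second inhibitor, at 2.83, 2.73, 2.31 and 2.52. The list of 17 matriptase and HGF pathway genes had no common direction, with 6 members higher and a median of -0.14.

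Mucosal genes also went both ways. Muc13, a membrane mucin of gut and duct epithelium, was at -2.87, -2.98, 1.21 and 1.07 (4.06 ± 0.92, SE), the third of the higher differences by size among symbols measured on all 4 arrays without overlap. Umod, uromodulin, was not well above background without CLC and was at least 3.31-fold higher with it (0.72 on the log2 scale with normexp, below that bound). The trefoil peptide Tff3, a secreted protein of mucous cells, was lower at 5.77, 4.01, 2.54 and 2.05 (-2.60 ± 0.64, SE), while Tff2 was at 1.80, -2.17, -2.43 and -2.08, high in 1 tumour without CLC alone. Over the 13 measured members 8 were higher, with a median of 0.15. Of the junction genes, Cldn2, a pore-forming claudin of bile ducts and other leaky epithelia, was at -3.62, -0.73, 0.96 and -0.47 (2.42 ± 1.14, SE, and 1.58 with normexp) and Tjp3 at 1.92, 2.58, 3.21 and 3.11 (0.91 ± 0.33, SE), whereas 13 of the 20 junction genes measured were lower.

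All 24 cholesterol synthesis genes measured were higher with CLC, 16 of them without overlap and none lower without overlap, with a median of 0.54 (0.83 for replicate 1 and 0.39 for replicate 2). Comparing tumours of the same replicate number, 20 of 24 were higher for replicate 1 and 23 for replicate 2. The pathway is driven by SREBP2 (Srebf2), which enters the nucleus when sterol is low. Hmgcs1, which commits carbon to mevalonate, is shown because it alone of 16 members with an entry held the sterol element letters TCACNCCAC. They were found in 331 of 27025 genes with a promoter entry (1.2%). The Hmgcs1 promoter lies at chr13:119690101-119690350 on the plus strand (GRCm38.p6, RefSeq), with the motif in capitals 137 bases before the start.
Hmgcs1: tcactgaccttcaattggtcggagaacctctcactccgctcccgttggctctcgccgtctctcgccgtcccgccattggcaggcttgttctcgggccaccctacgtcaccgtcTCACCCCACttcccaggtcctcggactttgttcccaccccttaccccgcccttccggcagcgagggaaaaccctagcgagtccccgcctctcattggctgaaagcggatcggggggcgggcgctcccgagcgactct

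Hmgcs1 was at 5.20, 4.65, 6.18 and 5.55 (0.94 ± 0.36, SE). Later enzymes followed: Fdps, farnesyl diphosphate synthase, at 4.91, 4.74, 6.72 and 5.62 (1.34 ± 0.50, SE), and Lss, lanosterol synthase, at 1.45, 1.70, 2.46 and 2.23 (0.77 ± 0.28, SE). Srebf2 itself was among the smallest differences in the list, at 0.10 ± 0.28 (SE).

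**Figure D4:**
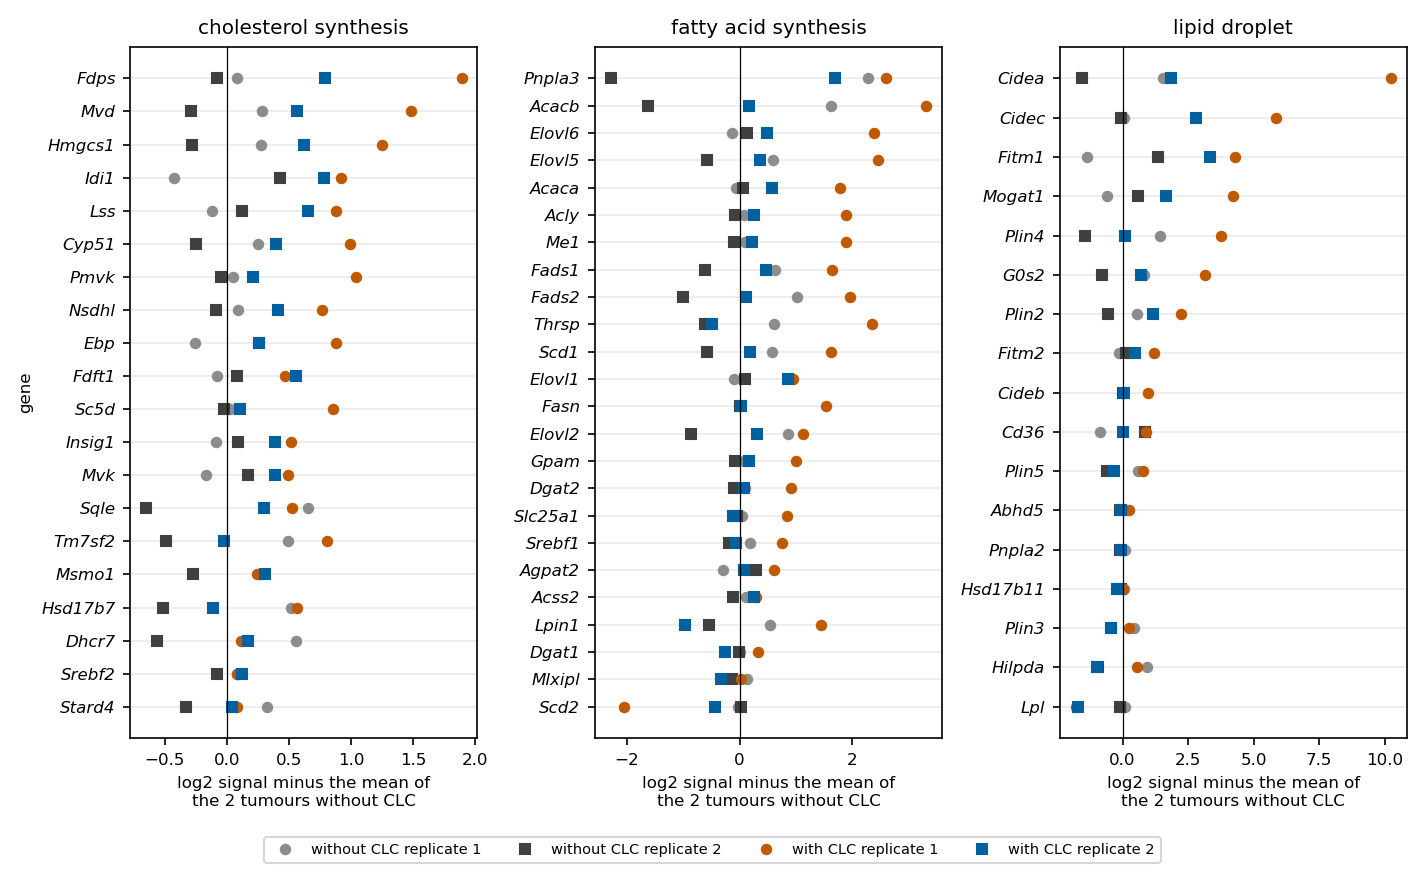
Log2 signal minus the mean of the 2 tumours without CLC (x axis, a separate scale in each panel) for most measured genes of cholesterol synthesis, fatty acid synthesis and lipid droplets, 1 point per tumour. The blue squares (with CLC replicate 2) sit right of 0 for most cholesterol genes (median 0.39) and near 0 for fatty acid synthesis (0.16) and droplet genes (0.04), whose orange circles (with CLC replicate 1) have medians of 1.49 and 0.98.

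Fatty acid synthesis genes were higher mainly in 1 tumour. Of 24 measured, 22 had a higher mean with CLC, 8 of them without overlap, and the median of 0.84 was made up of 1.49 for replicate 1 and 0.16 for replicate 2, the value within slide 2. Fasn, fatty acid synthase, was at 6.61, 6.62, 8.14 and 6.64, so replicate 2 with CLC lay 0.02 above the nearest tumour without CLC. Acly, which makes cytosolic acetyl-CoA, was at 4.77, 4.60, 6.57 and 4.95, and Acaca, acetyl-CoA carboxylase, at 3.94, 4.06, 5.79 and 4.58. The elongase Elovl1 was an exception, at 4.08, 4.26, 5.11 and 5.02 (0.90 ± 0.28, SE), with both tumours with CLC alike. Scd2, the desaturase of extrahepatic tissue, was lower at 4.96, 5.02, 2.94 and 4.55.

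Lipid droplet genes held some of the largest differences, again with replicate 1 the higher of the tumours with CLC. Cidec, which fuses droplets, was at 1.22, 1.1, 7.0 and 3.95 (4.31 ± 1.1, SE). Fitm1, which partitions fat into droplets, was at -3.02, -0.30, 2.64 and 1.67 (3.82 ± 0.97, SE), and Mogat1, a triglyceride synthesis enzyme, at -3.60, -2.44, 1.18 and -1.37 (2.92 ± 0.88, SE). Plin2, a droplet coat protein, was at 5.71, 4.61, 7.38 and 6.33 (1.70 ± 0.60, SE). For these genes the tumours without CLC were below both with CLC. Cidea was at -2.88, -5.94, 5.83 and -2.57, with replicate 1 with CLC far above the rest. Lpl, lipoprotein lipase, which takes up fat from plasma lipoproteins, was lower at 4.12, 3.91, 2.22 and 2.31 (-1.75 ± 0.26, SE). Over all 17 droplet genes 12 were higher, 7 without overlap, with a median of 0.51. Fatty acid oxidation genes, 25 of 27 higher, had a median of 0.83 for replicate 1 and -0.02 for replicate 2.

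Several of these genes are also adipocyte markers, and the adipocyte list was higher in the same tumour; its part in the lipid values was not tested. Its summed intensity, in multiples of the 75th percentile of the array, was 50.6 and 18.8 without CLC and 282 and 37.5 with CLC, over 12 genes with a probe, of which 6 were well above background on all 4 arrays and 3 on none. That sum includes Cidec and Cidea, described above with the droplet genes, so it is not a separate measure of adipocytes. The defining adipocyte genes Adipoq, at -6.55, -7.02, -6.12 and -7.69, and Plin1 were not well above background on any array. Cfd, adipsin, was not well above background without CLC and was at least 3.37-fold higher with it (0.74 on the log2 scale with normexp, below that bound), whereas Lep, leptin, was lower at -0.26, -0.18, -1.04 and -0.65.

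Some transporters of bile acids, drugs and sterols differed, in both directions. Slco1b2, the sinusoidal uptake carrier for organic anions, was at 2.82, 3.10, 5.38 and 4.53 (1.99 ± 0.36, SE). Slc22a7, an organic anion carrier, was lower at 1.69, 0.32, -1.45 and -0.82 (-2.14 ± 0.52, SE). Abcg5 and Abcg8, the subunits of the canalicular sterol exporter, were lower together, at 5.40, 5.44, 4.37 and 4.01 (-1.23 ± 0.26, SE) and at 3.74, 3.51, 2.67 and 2.31 (-1.13 ± 0.29, SE). Abcc4, a basolateral exporter induced in cholestasis, was at 3.49, 4.98, 2.52 and 2.99. Slc10a1, the main bile acid uptake carrier, and Abcb11, the bile salt export pump, overlapped between the groups. Of 26 bile acid genes measured, 2 (7.69%) were higher and 5 (19.2%) lower without overlap, with a median of -0.13. These shares were close to the 11.9% and 16.1% of all symbols above background.

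Glutathione S-transferases, 21 measured, had no member higher without overlap and 6 lower (28.6%, against 16.1% of all symbols above background), with a median of -0.14. Tumours of the same replicate number differed in opposite directions, with 13 of 21 higher with CLC for number 1 (median 0.20) and 3 for number 2 (-0.52). Mgst2, a membrane-bound transferase, was at 2.55, 4.70, -3.01 and 0.34 (-4.96 ± 1.22, SE), the largest lower difference among symbols measured on all 4 arrays without overlap. The abundant cytosolic forms differed less, Gstp1 by -0.61 ± 0.31 (SE) and Gstm1 by -0.26 ± 0.35 (SE). Probes for closely related transferases can share sequence, so these values are uncertain as to which gene they measure. NRF2 targets as a list had 2 members higher (Me1 and Prdx1) and 4 lower (Abcc4, Ugt1a6a, Abcc3 and Ephx1) without overlap and a median of -0.10. Their shares of 7.14% and 14.3% were not above the 11.9% and 16.1% of all symbols above background. Of the 28 measured, 17 were higher with CLC between tumours numbered 1 (median 0.27) and 5 between those numbered 2 (-0.50).

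Immune gene lists mostly had higher means with CLC, in small steps, and some of them mainly in the comparison of tumours numbered 2. Of 24 genes of MHC class II and antigen presentation, 20 were higher, 12 of them without overlap and none lower without overlap, with a median of 0.39 (0.16 for replicate 1 and 0.63 for replicate 2). Between tumours of the same replicate number, 14 of 24 were higher with CLC for number 1 (median 0.115) and 23 for number 2 (0.698). Cd74, the invariant chain, was at 4.91, 4.64, 5.51 and 5.48, and Ciita, the class II transactivator, at 0.80, 0.69, 1.21 and 1.52. The class II chains H2-Aa (2.56, 2.40, 2.77 and 3.22), H2-Eb1 (6.28, 6.16, 6.40 and 6.92) and H2-Ab1 (6.24, 5.77, 6.38 and 6.46) did not overlap, with differences of 0.42 to 0.51. Clec9a, a receptor of cross-presenting dendritic cells, was at -3.27, -2.31, -1.46 and -1.53 (1.29 ± 0.37, SE), and Batf3, their transcription factor, at -1.68, -0.75, -0.06 and -0.63.

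Macrophage and Kupffer cell genes had 22 of 28 members higher, 8 without overlap, with a median of 0.46 (0.51 for replicate 1 and 0.33 for replicate 2). Between tumours of the same replicate number, 20 of 28 were higher with CLC for number 1 (median 0.52) and 18 for number 2 (0.30). Marco, a scavenger receptor, was at -2.49, -1.74, -0.84 and 1.16 (2.28 ± 0.82, SE), and Cd163, the hemoglobin scavenger receptor, at -3.52, -3.47, -2.88 and -2.07. The Kupffer marker Clec4f, at 0.11, 2.51, 3.91 and 1.36, and the pan-macrophage marker Adgre1, at 1.90, 2.41, 2.38 and 2.62, overlapped. The summed intensity of the list was 252 and 252 without CLC and 354 and 345 with CLC. The list holds Spp1, also a ductular gene, and without it, a choice made after seeing the data, the sums were 209 and 224 without CLC and 295 and 239 with CLC.

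T and NK cell genes had 18 of 24 members higher, 8 without overlap, and Cd4, Klrb1c and Prf1 were the 3 lower without overlap. Klrb1c was not well above background on either array with CLC, and with no filter on dim probes its difference was 0.884. The list median was 0.18 for replicate 1 and 0.88 for replicate 2. Between tumours of the same replicate number, 11 of 24 were higher with CLC for number 1 (median -0.07) and 19 for number 2 (0.93). Cd8a was at -4.06, -5.01, -2.34 and -2.96 (1.89 ± 0.89, SE), and Nkg7, of cytotoxic granules, at -0.39, -1.27, -0.14 and 0.57 (1.04 ± 0.42, SE). With normexp the difference of Cd8a was 0.84. The pan-T marker Cd3e was at 1.60, 1.28, 1.22 and 1.40 and overlapped, and Cd4 was lower at 5.38, 4.69, 3.57 and 4.43, with a second Cd4 probe at -0.13. The summed intensity of the list was 51.5 and 33.9 without CLC and 22.8 and 35.6 with CLC. Most of it in the tumours without CLC was Cd4, and the sums without Cd4, likewise chosen after seeing the data, were 9.94 and 8.04 without CLC and 10.9 and 14 with CLC. Chemokines were higher in 19 of 23 cases, 5 of them without overlap, and 1 was lower without overlap. The medians were 0.09 for replicate 1 and 1.56 for replicate 2. Between tumours of the same replicate number, 10 of 23 were higher with CLC for number 1 (median -0.19) and 19 for number 2 (1.25). Ccl5 was at 2.65, 3.02, 3.56 and 4.69 (1.29 ± 0.42, SE), and Cxcl9, induced by interferon gamma, at 0.81, 0.75, 1.36 and 2.81.

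In some lists the tumours of a group stood apart, and few members differed without overlap. Cell cycle genes had 26 of 30 means higher, but 1 member higher without overlap and 1 lower, and medians of -0.23 for replicate 1 and 1.01 for replicate 2. Mki67, the proliferation marker, was at -0.60, 1.09, 0.35 and 1.67, and Top2a at -2.58, -0.05, -1.50 and 0.10, with the replicates numbered 2 high in both groups. The list median turned to -0.46 without the tumour without CLC replicate 1. Between tumours of the same replicate number, 27 of 30 cell cycle genes were higher with CLC for number 1 (median 0.51). For number 2 it was 19 (median 0.13). E2f8, a repressor of the cycle with a role in liver polyploidy, was the member that was higher without overlap, at -3.38, -2.38, -0.31 and -1.28 (2.08 ± 0.66, SE), and cyclin E1 (Ccne1) the one lower, at 1.31, 1.30, -0.16 and 0.77. The interferon response list had 24 of 26 means higher with Stat2 the 1 member not overlapping. Ifit1 was at -0.80, 1.95, -0.79 and 2.56, again high in both tumours numbered 2. Between tumours of the same number, 15 of 26 interferon genes were higher with CLC for number 1 (median 0.11). For number 2 it was 24 (median 0.50).

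Stromal genes were close to even in their group means. Stellate and myofibroblast genes had 12 of 24 members higher with a median of -0.02, and endothelial genes 16 of 28 with a median of 0.11. For stellate genes the tumours of the same replicate number differed in opposite directions. With CLC, 4 of 24 were higher for number 1 (median -0.6) and 21 for number 2 (0.73). Among matrix genes, Fbln2, fibulin 2, was at -0.76, -0.86, -0.11 and 1.00 (1.26 ± 0.43, SE) and Col3a1 at 2.67, 2.08, 3.05 and 3.14. Vwf, of vessel endothelium, was at -0.31, -1.69, 1.47 and -0.20, and Dll4, a Notch ligand of vessel tips, was lower at -0.39, 0.25, -1.30 and -0.92.

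The genes with the smallest unadjusted p included several outside these lists. Among those higher with CLC, Tmem139, a membrane protein, was at -5.95, -6.15, -2.57 and -2.38, not well above background without CLC and at least 8.02-fold higher with it, although with normexp the difference was 1.07 on the log2 scale, below that bound. Nnmt, which methylates nicotinamide, was at 0.84, 0.27, 2.35 and 2.70 (1.97 ± 0.31, SE). Mboat1, a lysophospholipid acyltransferase, was at -4.43, -3.84, -1.60 and -1.47 (2.60 ± 0.36, SE), and P2rx5, a purinergic receptor, at -4.47, -4.87, -2.47 and -2.36 (2.26 ± 0.32, SE). The groups were far apart for each of them relative to the gaps within a group, and with normexp the differences of Mboat1 and P2rx5 were 1.43 and 0.93. Among those lower, the neuropeptide gene Npb was at 3.60, 3.70, 0.82 and 1.25 (-2.62 ± 0.29, SE), and Adrb3, the beta-3 adrenergic receptor, at 0.99, 2.33, -1.07 and -1.12 (-2.76 ± 0.52, SE). Unc93a was at 0.06, -0.45, -2.01 and -2.43, and Ank2, ankyrin 2, at -1.41, -0.86, -3.55 and -2.94, a difference of -2.11 that was -1.13 with normexp. The rule also named Pkia among the higher genes and Nipal2, which was well above background in 1 of the 4 tumours, with CLC, and Rtn4r, Dlx4, Dlx5, Fbxo36, Spink14 and Tpsg1 among the lower, of which Dlx5, Spink14 and Tpsg1 were not well above background on either array with CLC.

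The largest differences without overlap, beyond those already described, were for Serpinb9f, a protease inhibitor with near-identical relatives on the array, at -4.37, -3.33, 2.37 and -1.74, and Igfbp6, which binds IGF2, at -1.91, -3.81, -0.22 and 2.58 (4.03 ± 1.06, SE). Tubb2b, a beta-tubulin, was at 1.38, -0.78, 3.74 and 3.73 (3.43 ± 0.69, SE), with both tumours with CLC alike. Asns, asparagine synthetase, was at -0.86, -1.57, 1.40 and 2.91 (3.37 ± 0.68, SE). On the lower side, Ptpn14, a phosphatase that restrains YAP, was at 2.56, 0.46, -3.08 and -0.06, with other probes reaching -0.33, Opn3, an opsin, at -0.89, 1.91, -2.59 and -2.40, and Kcp at 3.17, 1.17, -0.97 and 0.10, with a second probe at -1.21. Mycn, a MYC family gene from the oncofetal list, was at -4.23, -4.20, -2.21 and -2.64 (1.79 ± 0.32, SE, and 0.81 with normexp), while Afp, at 3.14, 2.33, 1.18 and 3.97, overlapped.

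Among the largest gaps between the tumours of a group were genes that differ between male and female mouse liver. Cyp2b9, a cytochrome P450 predominant in female liver, was at 4.38, -5.24, 3.64 and -5.27. Cyp4a12a, predominant in male liver, was at -4.38, 4.84, 1.04 and 4.22. Both followed the replicate number as Xist and Ddx3y did, and both have close relatives on the array (Cyp2b10 and Cyp4a12b), whose probes split the same way. The chemokine Ccl20 was at -2.58, 2.81, -2.86 and 3.15, and the trypsin inhibitor Spink1 at 1.48, 5.79, 1.39 and 6.52, with the same split, and Sorcs2 at 1.82, -5.06, 1.31 and -4.28 the opposite way. Mfsd2a, a lipid transporter, at 0.13, -3.78, 4.55 and -2.27, was higher in the tumour numbered 1 of each group, and Bex1, at 0.22, 3.45, -3.79 and 2.40, in the tumour numbered 2. H19, an imprinted fetal RNA, was at 8.14, -2.18, -0.67 and 0.10, far higher in the tumour without CLC replicate 1 than in the other tumours, as was Cpe, carboxypeptidase E, at 4.90, -2.96, 0.51 and 0.83.

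**Figure D5:**
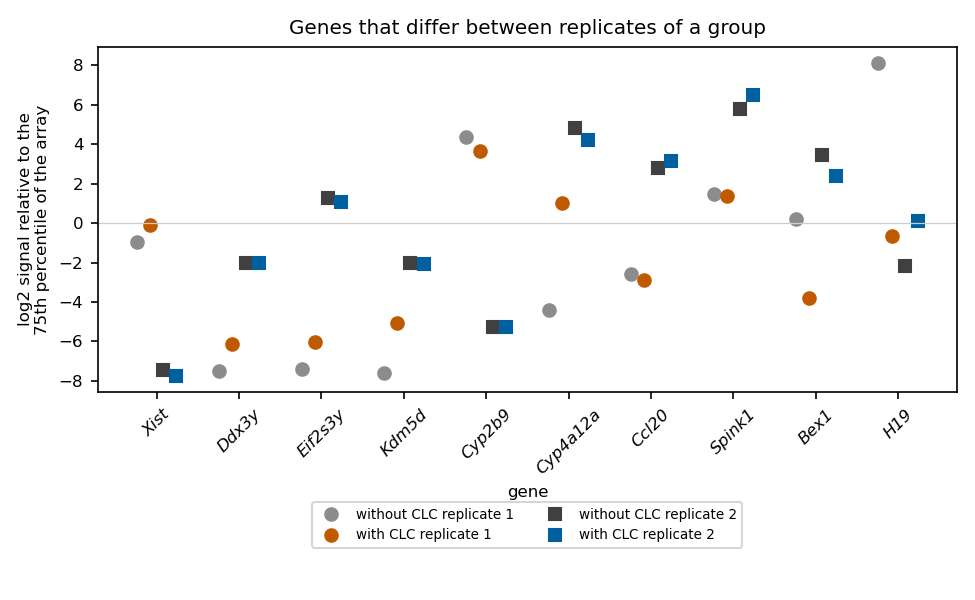
Log2 signal relative to the 75th percentile of the array (y axis) in the 4 tumours for 10 genes (x axis) with large gaps between replicates. Circles are replicate 1 and squares replicate 2, grey without CLC and coloured with CLC. Xist and Cyp2b9 are high in both circles, Ddx3y, Eif2s3y, Kdm5d, Ccl20 and Spink1 in both squares, and H19 in the tumour without CLC replicate 1 (8.14).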

How the data were processed

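RNA from 6 frozen tumours was hybridised to 1-colour Agilent arrays, 1 tumour per array. Per the file headers, the deposited intensity came from Agilent Feature Extraction 11.5.1.1 after subtraction of local background and detrending, with no scaling between arrays. The design is annotated on mm9. Other deposited columns, per the file headers, mark spots as controls, outliers or well above background.

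Control and outlier spots were left out, and the log2 of the processed intensity minus the array's 75th percentile was taken. Replicate spots were averaged. A probe entered when 1 of the 3 groups had it marked well above background on both its arrays, and the brightest probe stood for a gene. Accessions were matched to RefSeq symbols (names only). limma 3.58.1 in R 4.3.3 was fitted to all 6 arrays with Benjamini-Hochberg adjustment, and was checked on simulated data. The number of arrays limits the precision.

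Genes named are the 12 with the smallest p and the 8 with the largest difference without overlap in each direction, list members without overlap or defining a list, a fixed set of markers, and the 6 largest gaps between replicates of a group. Genes outside that rule, among them Igf2 and those of the amino acid response list, were chosen after their values were seen, as were the promoter motifs. Some list members are counted but not reported here by name. Members and lists were chosen with earlier results of these data known. The authors' deposited table of scaled intensity served as an alternative. Other alternatives covered scaling, background correction, filters, slide and replicate blocks and left-out arrays. normexp used median spot signals, since the tables hold no mean signals.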

Additional observations from a re-analysis of the deposited data

How the results depend on the processing

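With 2 tumours per group on 2 slides, and 1 tumour with CLC alone on its slide, precision is limited by the number of arrays and dim probes carry the least certain values. Features past the adjusted threshold numbered 0 under all 21 alternatives, with the smallest limma adjusted p between 0.164 (quantile normalization) and 1.0. The medians of the pericentral, biliary, cholesterol, fatty acid synthesis and macrophage lists stayed above 0 under each alternative. The causes of the changes below were not tested.

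With normexp, 342 features were lower at an unadjusted p and 3377 lower without overlap, the pericentral median was 0.798 and the biliary median 0.456. With no filter on dim probes, 1062 features were higher at an unadjusted p, 4946 were higher without overlap, and Klrb1c was at 0.884. With features well above background on all 4 arrays, 308 were lower at an unadjusted p and the biliary median was 0.557. With the mean of probes, the pericentral median was 1.37, Alb was at 0.0172 and Hnf4a at 0.0745. With median scaling, Alb was at 0.0016. With symbols alone, 279 features were lower at an unadjusted p and 2532 lower without overlap.

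With the slide as a block, 339 features were lower at an unadjusted p, and within slide 2 there were 299, with 6090 features higher and 9347 lower without overlap. In both, the macrophage median was 0.327, Sox9 was at 0.191, Hnf4a at 0.0448, Afp at 1.23, Cyp1a2 at 0.0894 and Slc10a1 at -0.133. These are also the values without the tumour with CLC replicate 1. Within slide 2, no overlap was judged between 1 tumour and 2, a condition that is easier to meet. The same holds below where an Epcam-derived array was left out. Such counts are therefore not comparable with the 2762 and 5401 of the main setting.

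Leaving out 1 array at a time gave 337 to 816 features higher and 339 to 1644 lower at an unadjusted p, and 2762 to 7695 higher and 5401 to 11045 lower without overlap. Medians ran from 0.717 to 1.43 (pericentral), 0.587 to 0.973 (biliary), 0.386 to 0.833 (cholesterol), 0.162 to 1.49 (fatty acid synthesis), 0.268 to 0.514 (macrophage) and -0.455 to 1.22 (cell cycle). The sign turned for Alb (0.119 without the tumour without CLC replicate 1 and 0.208 without the tumour with CLC replicate 2, range -0.258 to 0.208), Afp (0.246 without the former and 1.23 without the tumour with CLC replicate 1, range -1.55 to 1.23), Mki67 (-0.081 to 1.61), Atf4 (-0.459 to 0.0521), Rnf43 (-0.326 to 0.657), Ddit3 (-0.418 to 0.54) and Prom1 (-0.969 to 4.15). It also turned for Sox9 (-1.27 to 0.191), Hnf4a (-0.33 to 0.0448, and 0.00804 without the tumour without CLC replicate 2), Cyp1a2 (-0.889 to 0.0894) and Slc10a1 (-0.133 to 0.404).

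With the replicate number as a block (replicate block), 0 features were called, 426 were higher and 611 lower at an unadjusted p, and the pericentral median was 1.16. A replicate block on only the 4 Epcam-derived arrays, chosen after seeing the data, gave 562 and 745. The deviations of same-numbered tumours correlated at 0.222 with against without CLC, 0.0619 for Albumin-derived tumours against those with CLC and -0.159 against those without, so the numbers were not taken to pair the samples.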

Other observations

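Genes of the amino acid response, a list chosen after the difference of Asns was seen, were measured for 31 members, of which 22 were higher with CLC, 11 without overlap and 2 lower without overlap, with a median of 0.39 (0.27 for replicate 1 and 0.35 for replicate 2). Beside Asns, the mitochondrial folate enzyme Mthfd2 was at -2.44, -2.73, -1.16 and -0.68 (1.66 ± 0.29, SE, n = 2), in the order used above. The alanyl-tRNA synthetase gene Aars was at 2.69, 2.67, 3.70 and 3.45, the transcription factor Atf5 at 6.97, 6.30, 7.95 and 7.39, and the hormone gene Fgf21 at 2.17, 2.69, 3.22 and 3.66, each with both tumours with CLC higher. Atf4, which drives this response through its translation, was at 5.97, 5.46, 5.35 and 5.66, and Ddit3 at -0.50, -0.10, -0.72 and 0.24, both with overlap. Sesn2 and Psph were lower without overlap, by -0.42 ± 0.32 and -0.71 ± 0.41 (SE).

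Some lists differed in opposite directions between tumours of the same replicate number. Of 30 respiratory chain genes, 29 were higher with CLC among the tumours numbered 1 (median 0.46) and 1 among those numbered 2 (median -0.41). Of 27 proteasome genes, 25 were higher for number 1 (0.54) and 2 for number 2 (-0.37). Extracellular matrix genes ran the other way, with 8 of 33 higher for number 1 (-0.67) and 31 for number 2 (0.97). Of 47 lists with at least 5 members measured, both comparisons were higher in 14, both lower in 6 and opposite in 27.

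Igf2, the fetal growth factor gene next to H19, did not pass the background filter. Its brighter probe was at 6.42, -7.81, -6.29 and -5.16, high in the same tumour as H19. Msln, a mesothelial gene, was at -5.81, -6.75, -3.73 and -0.35 and at least 10.9-fold higher with CLC, not well above background without it. That bound rests largely on the tumour with CLC replicate 2, and with normexp the difference was 1.57 on the log2 scale, below it. The summed intensity of 9 mesothelial genes with a probe, of which 2 were well above background on all 4 arrays and 1 on none, was 1.99 and 0.34 without CLC and 0.55 and 1.59 with CLC.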
